A study of Danio rerio with 6 samples.

Results

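The genes of the Kruppel-like factor (KLF) family were taken as every row of the deposited table whose name starts with klf and a number. This gave 8 genes among the 2471 analysed, namely klf1, klf2a, klf2b, klf6a, klf7b, klf11b, klf12a and klf17. The RefSeq gene table of the GRCz12tu assembly lists 22 such symbols. The other 14 (klf3, klf4, klf5a, klf5b, klf5l, klf6b, klf7a, klf8, klf9, klf10, klf11a, klf12b, klf13 and klf15) were not analysed here. The names were grouped by role into the flow list (klf2a, klf2b and klf6a), the erythroid list (klf1 and klf17) and the remaining 3 genes.

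KLFs are transcription factors that bind GC-rich and CACCC-type DNA through zinc fingers at the C-terminal end of the protein. Different members are known for different lineages. KLF2 is induced in endothelium by the shear stress of blood flow, and zebrafish klf2a is needed for normal heart valves and acts upstream of wnt9b there. KLF1 activates globin and red cell membrane genes in erythroid precursors. In the zebrafish trunk, circulation begins soon after the stage sampled here, flow was not measured, and "flow-responsive" names what a gene is known for.

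The samples were endothelial cells from zebrafish embryos of the genotype NFKB:d2eGFP x kdrl:mCherry at 22 hours post fertilization (hpf). All embryos carried a reporter of NF-kB activity that makes a destabilized green fluorescent protein and a reporter that makes mCherry under the promoter of the VEGF receptor gene kdrl. Live mCherry-positive cells from dissected trunks were sorted into kdrl+/NFKB+ and kdrl+/NFKB- cells, at about 7000 cells per sample, with 3 libraries per sort. NF-kB itself was not perturbed. The labels call the libraries biological replicates without saying whether each came from its own pool of embryos, so the p-values may measure technical spread.

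The table had been selected by the authors on this same comparison, at 2-fold and an adjusted p of 0.01, so every row differs by construction and the calls below are no independent evidence of a difference. The reads recovered for its genes came to between 8393815 and 15165090 per library, which are sums over selected genes and not depths. The endothelial label went with at least 12045 reads of kdrl and 13439 of cdh5 in every library. Their levels were not equal between the sorts, at 2.30- and 2.97-fold higher in NFKB+ than in NFKB- libraries. Erythroid and myeloid markers were also present, more so in NFKB- libraries. The 5 globin genes took between 6.69% and 7.84% of the table's reads in NFKB+ libraries and between 35.9% and 41.7% in NFKB- libraries. The 20 myeloid genes analysed took between 0.238% and 0.297% in NFKB+ and between 1.42% and 1.66% in NFKB- libraries. The part of these cells in the KLF differences was not tested. In sorted bulk samples, fewer cells of a type and less RNA per cell cannot be told apart.

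The 8 KLF genes analysed were split between the sorts. The KLF genes not analysed cannot be placed, since the table keeps only rows past the authors' 2-fold limit. The flow-responsive genes klf2a, klf2b and klf6a were higher in NFKB+ cells, as were klf7b, klf11b and klf12a, and the erythroid genes klf1 and klf17 were lower. Thus 6 of 8 were higher, where 54.5% of all genes in the table were called higher, and 2 of 8 were lower, where 45.5% were called lower. The groups of libraries did not overlap for any of the 8 genes, and this held for 99.6% of the table. The median log2 difference (NFKB+ minus NFKB-) was 1.82 over the 6 higher KLF genes against 1.48 over all higher genes. Sums of reads are not corrected for transcript length, so levels are compared between libraries and not between genes.

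**Figure D1:**
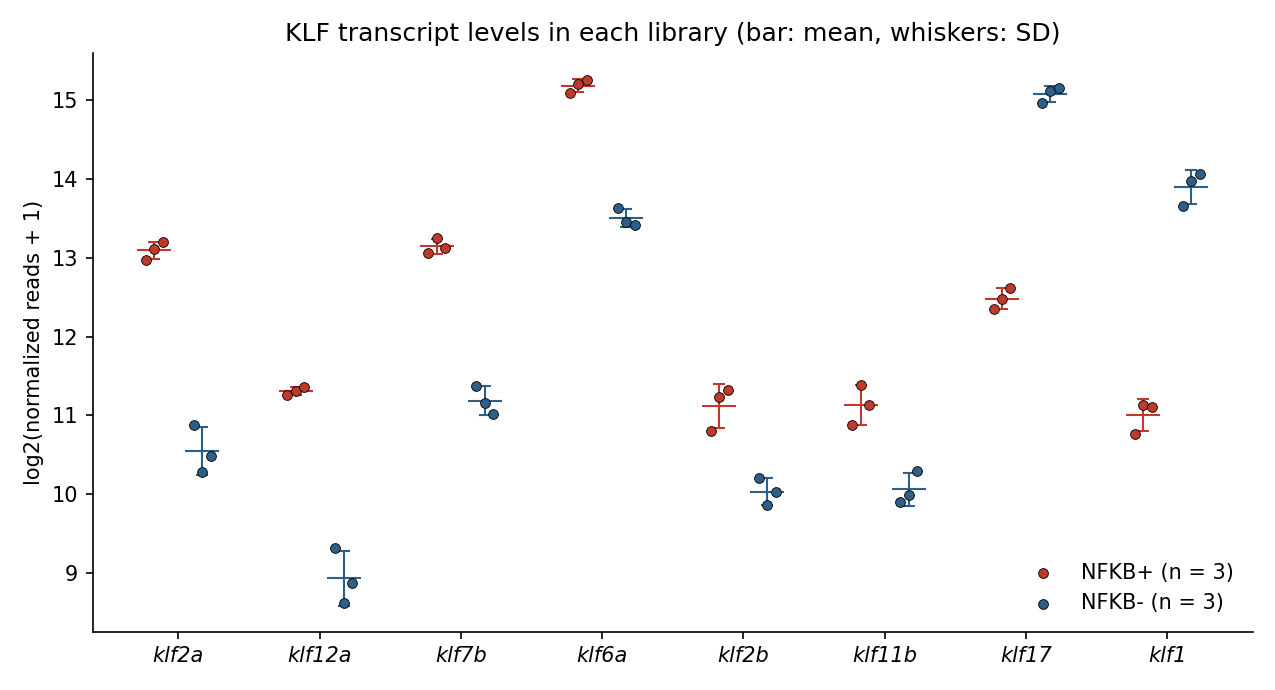
Level of the 8 KLF genes on the y axis, as log2 of normalized reads plus 1, with the genes on the x axis in the order of their differences. Points are the 3 NFKB+ (red) and 3 NFKB- (blue) libraries in column order, horizontal bars are means and whiskers are SD. The red points lie above the blue points for 6 genes and below them for klf17 and klf1.

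The flow-responsive gene klf2a (NCBI Gene 117508) had the largest excess of the higher KLF genes in NFKB+ cells. Its level, as log2 of normalized reads plus 1, was 12.97, 13.11 and 13.19 in NFKB+ libraries 1 to 3. It was 10.88, 10.28 and 10.48 in NFKB- libraries 4 to 6. Every NFKB+ library was thus at least 4.27-fold above every NFKB- library. The mean was 13.09 ± 0.11 (SD, n = 3) against 10.55 ± 0.31 (SD, n = 3), a log2 difference of 2.55 with a standard error (SE) of 0.14, or 5.84-fold (limma adjusted p = 3.03e-10). Of the 1347 higher genes, 6.16% had a larger difference.

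Its duplicate klf2b (Gene 117509) showed a smaller excess. The level was 10.80, 11.23 and 11.33 in NFKB+ libraries and 10.21, 9.86 and 10.03 in NFKB- libraries. The nearest libraries of the sorts were 1.51-fold apart. The means differed by 1.09 on the log2 scale (SE 0.15), or 2.12-fold (limma adjusted p = 5.88e-06), and 90.9% of the higher genes had a larger difference. This lay near the 2-fold limit below which the table has no rows. Within each library, the log2 ratio of klf2a to klf2b reads was 2.17, 1.88 and 1.87 in NFKB+ cells and 0.67, 0.42 and 0.45 in NFKB- cells. This ratio does not depend on how the library was scaled, and any offset from transcript length is the same in every library. The excess of klf2a was 2.75-fold that of klf2b, with no overlap between the sorts (exact permutation test, two-sided, p = 0.1, the smallest that 3 against 3 libraries allow). Under the deposited scaling both duplicates were therefore higher in NFKB+ cells, by different amounts. Only the difference between these amounts is free of the scaling.

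The third gene of the flow list, klf6a (Gene 280650), is related to mammalian KLF6, a factor induced after vascular injury. Its level was 15.09, 15.20 and 15.25 in NFKB+ libraries and 13.63, 13.46 and 13.42 in NFKB- libraries. These were tight groups, with SDs of 0.080 and 0.11. The difference was 1.68 (SE 0.10), or 3.20-fold (limma adjusted p = 1.10e-09).

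The KLF genes without a place on the flow or erythroid lists were higher in NFKB+ cells as well. The gene klf12a (Gene 798629), whose mammalian relative is a transcriptional repressor, had 11.26, 11.31 and 11.36 in NFKB+ and 9.31, 8.62 and 8.88 in NFKB- libraries. Its NFKB+ values had the smallest spread of any KLF group and its NFKB- values the largest, with SDs of 0.052 and 0.35. The difference was 2.37 (SE 0.16), or 5.18-fold (limma adjusted p = 3.24e-09), close behind that of klf2a. The gene klf7b (Gene 553082), related to mouse Klf7 of axon outgrowth, had 13.06, 13.25 and 13.13 in NFKB+ and 11.38, 11.16 and 11.02 in NFKB- libraries. It was 3.89-fold higher (log2 difference 1.96, SE 0.11, limma adjusted p = 5.83e-10). The gene klf11b (Gene 559076), related to a mammalian factor induced by TGF-beta, had 10.88, 11.39 and 11.14 against 9.90, 9.99 and 10.30. It was 2.10-fold higher (log2 difference 1.07, SE 0.15, limma adjusted p = 6.71e-06), with its nearest libraries 1.49-fold apart. This was the smallest difference of the 8 KLF genes analysed, and it lay near the 2-fold limit below which the table has no rows.

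The erythroid gene klf1 (Gene 30104) was lower in NFKB+ cells, with the largest difference of any KLF gene under the deposited scaling. Scaled to the same total, its difference of -2.40 was smaller in size than those of klf2a, klf12a and klf7b, at 3.04, 2.87 and 2.45. With globins left out of that total, klf1 again had the largest difference, at -3.00 against 2.43 for klf2a. Its level was 10.77, 11.14 and 11.11 in NFKB+ libraries and 13.65, 13.97 and 14.06 in NFKB- libraries. The lowest NFKB- library was 5.73-fold above the highest NFKB+ library. The means of 11.00 ± 0.21 (SD, n = 3) and 13.90 ± 0.21 (SD, n = 3) differed by -2.89 (SE 0.13), or 7.42-fold (limma adjusted p = 6.44e-11). Of the 1124 lower genes, 9.79% had a larger difference. Transcripts of klf1 remained measurable in NFKB+ libraries, at 1676, 1877 and 3449 reads.

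The second erythroid gene, klf17 (Gene 65238), was named biklf for its expression in the zebrafish blood island, acts in primitive erythropoiesis and is also known from the hatching gland. Its level was 12.35, 12.47 and 12.62 in NFKB+ libraries and 14.96, 15.12 and 15.15 in NFKB- libraries. The difference was -2.59 (SE 0.11), or 6.04-fold (limma adjusted p = 3.98e-11). Within libraries, the log2 ratio of klf17 to klf1 reads was 1.588, 1.336 and 1.503 in NFKB+ and 1.302, 1.145 and 1.086 in NFKB- cells. The groups did not overlap, but the nearest libraries lay only 0.034 apart, and the mean shift was 0.30 on the log2 scale (exact permutation p = 0.1, the smallest possible).

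**Figure D2:**
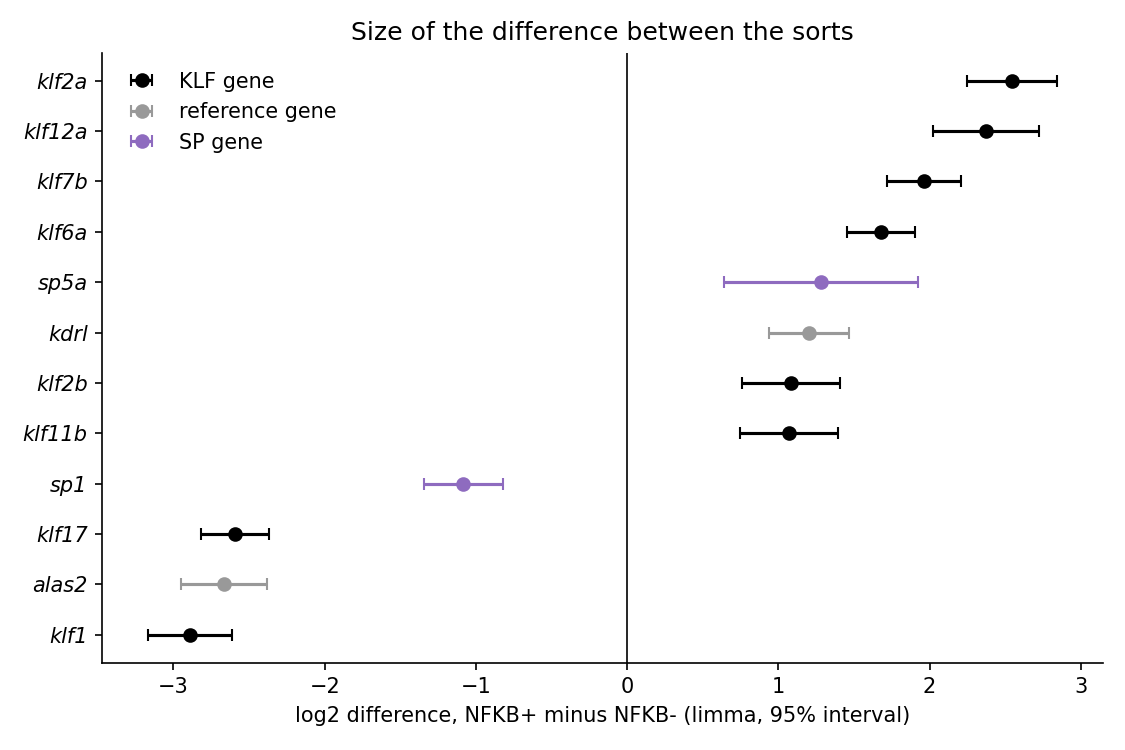
Log2 difference between the sorts (NFKB+ minus NFKB-) on the x axis for the 8 KLF genes (black), the related SP genes (purple) and the reference genes kdrl and alas2 (grey), one gene per line. Points are limma estimates and bars 95% intervals. The estimates for klf2a and klf12a, 2.55 and 2.37, lie above that for kdrl, 1.2, and klf17 and klf1, -2.59 and -2.89, lie either side of alas2 at -2.67.

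The flow-responsive and the erythroid member were then compared within each library. The log2 ratio of klf2a to klf1 reads was 2.21, 1.97 and 2.08 in NFKB+ libraries and -2.77, -3.70 and -3.58 in NFKB- libraries. The ratio was thus higher in every NFKB+ library than in any NFKB- library. Both genes had passed the authors' 2-fold selection on this comparison, in opposite directions. The separation was therefore largely set in advance and is no independent test. Its sign carries an offset from the lengths of the transcripts, and only the shift between the sorts is free of it. The means of 2.09 ± 0.12 (SD, n = 3) and -3.35 ± 0.50 (SD, n = 3) differed by 5.44 on the log2 scale, or 43.4-fold, and the nearest libraries of the sorts were 26.9-fold apart. The exact two-sided permutation p was 0.1, the smallest possible, and 0.133 after Benjamini-Hochberg adjustment over the 20 within-library ratios computed. In 15 of these 20 the sorts did not overlap. The share over all pairs of genes in the table was not computed, so this count says nothing particular to the KLF genes.

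Ratios to a marker gene set the KLF differences beside the cell types. Against kdrl, whose promoter defined the gate, the log2 ratio of klf2a was -2.05, -1.98 and -1.81 in NFKB+ libraries and -3.25, -3.43 and -3.20 in NFKB- libraries. The excess of klf2a was therefore 2.54-fold larger than that of kdrl, with a gap of 1.15 on the log2 scale between the nearest libraries. Against cdh5, the gene of the endothelial cadherin, it was 1.96-fold larger. The excess over kdrl was 2.25-fold for klf12a, 1.69-fold for klf7b and 1.39-fold for klf6a, and the sorts did not overlap for any of these (exact permutation p = 0.1 and adjusted p = 0.133 for each). For klf2b and klf11b the ratio to kdrl overlapped between the sorts, with shifts of -0.11 and -0.13 (exact permutation p = 0.6 and 0.8). Their differences were thus not apart from that of kdrl beyond the spread between libraries, which does not show that they are equal. An excess over kdrl was common, since 77.4% of the 1347 higher genes had a larger difference than kdrl. The share of genes whose ratio to kdrl did not overlap between the sorts was not computed. Nor is an excess over kdrl one over endothelial genes at large. Of the higher endothelial markers analysed, only pecam1 had a smaller difference than kdrl. Among all 25 analysed, 3 had larger differences than klf2a, 4 than klf12a, 10 than klf7b and 13 than klf6a. The klf6a difference of 1.68 lay below their median of 1.79. In size, 24 of the 25 exceeded klf2b and all 25 exceeded klf11b.

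The erythroid genes stayed close to other erythroid genes in the same comparison. Against alas2, the first enzyme of erythroid heme synthesis, the log2 ratio of klf1 was -2.75, -2.75 and -2.67 in NFKB+ libraries and -2.53, -2.39 and -2.56 in NFKB- libraries. This was a shift of -0.23, or 1.17-fold, with no overlap (exact permutation p = 0.1). Against gata1a, the erythroid GATA factor gene, the shift of klf1 was -0.16 and the sorts overlapped (exact permutation p = 0.2). For klf17 the ratio to alas2 overlapped, with a shift of 0.072 (exact permutation p = 0.5), and the ratio to gata1a shifted by 0.14 without overlap (exact permutation p = 0.1). These shifts are small beside the differences of -2.89 and -2.59 between the sorts.

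**Figure D3:**
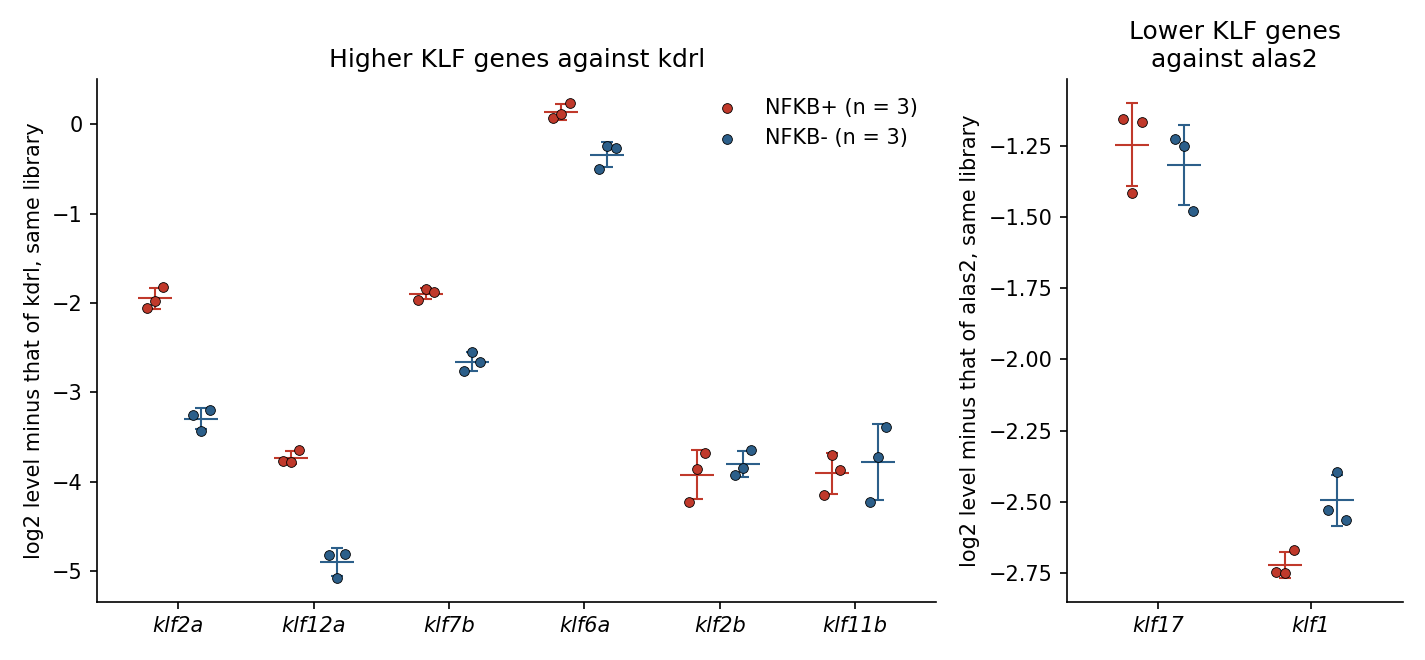
Log2 ratio of KLF reads to kdrl reads (left, the 6 higher genes) and to alas2 reads (right, the 2 lower genes, on a finer y scale) in each library, with NFKB+ in red and NFKB- in blue, means as bars and SD as whiskers. The sorts are apart for klf2a, klf12a, klf7b and klf6a and for klf1, and they overlap for klf2b, klf11b and klf17.

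The order of the differences ran from klf2a over klf12a, klf7b, klf6a, klf2b, klf11b and klf17 to klf1. Neighbours in it were compared in the same way. The order was taken from these same libraries, so the sign of each shift was set beforehand and the order was not tested. The sorts overlapped only for klf2b against klf11b, where the shift was 0.013 (exact permutation p = 1). The neighbours klf2a and klf12a differed by 0.17, with a ratio that varied little within a sort, at SDs of 0.061 and 0.042. The shift was 0.41 between klf12a and klf7b, 0.28 between klf7b and klf6a and 0.59 between klf6a and klf2b. Each of these was without overlap, and none could pass 0.05 with 3 libraries per sort.

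Single libraries stood at the same end of their sort for most KLF genes. All 8 had their lowest NFKB+ value in library 1, which was the lowest NFKB+ library for 42.2% of all genes. Among NFKB- libraries, library 4 was highest for 5 of the 6 higher KLF genes, klf11b being the exception, and this held for 65.6% of all higher genes. The same library was lowest for klf1 and klf17, as it was for 61.9% of all lower genes. It had the lowest globin share of the NFKB- libraries, 35.9%, and the highest kdrl level, 14.13 against 13.71 and 13.68.

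By Euclidean distance between gene-centred log2 values over the 6 libraries, the gene nearest to klf2a among 2355 well-measured genes was lmbr1l, at 0.167. It was followed by klf12a (0.237), zgc:174888 (0.248), parvab (0.285) and ccdc102a (0.291). The gene parvab encodes a parvin of integrin adhesions. Pearson correlations with klf2a lay between 0.996 and 0.999 for these 5 genes over the 6 libraries, which share the sort, so the values mostly restate the difference between the sorts. The paralogue klf2b came at place 1089. The genes nearest to klf1 were the carbonic anhydrase gene cahz (0.107), the embryonic globin genes hbae1 (0.135) and hbbe1.1 (0.158), the biliverdin reductase gene blvrb (0.200) and the globin gene hbbe3 (0.235). All 5 are on the erythroid list. Reads of near-identical globin copies could have been split between genes. The gene klf17 came at place 41.

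Of the 52 genes listed for flow response and the KLF2 pathway, 23 were analysed, and 22 of these were higher in NFKB+ cells, where 54.5% of the table was higher. Without the 3 KLF genes, 19 of 20 were higher, with a median log2 difference of 1.65, against 1.08 over all genes and 1.48 over all higher genes. This median was not above that of the endothelial marker list, 1.79. The median over all genes, used here and for the lists below, lies near the edge of the gap left by the 2-fold selection. It therefore describes no typical gene. The klf2a difference of 2.55 was exceeded on the flow list by wnt9a and, in the other direction, gpr183a. Among genes upstream of KLF2 in mammalian endothelium, the MEF2 factor genes mef2cb, mef2ca and mef2d were 4.19-, 2.17- and 2.01-fold higher, and these 3 were chosen after their values were seen. Other listed genes upstream of KLF2 were not analysed. Genes of this or another list that were not analysed cannot be placed, since the table keeps only rows past the authors' 2-fold limit. Among genes of signals and vessels, the ligand gene wnt9a was 7.21-fold higher, at 9.40 ± 0.028 against 6.55 ± 0.62 (SD, n = 3 each). The vascular gene egfl7, host of the endothelial miR-126, was 4.39-fold higher. The gene wnt9b, downstream of klf2a in valves and also chosen after its values were seen, was few in reads and spread widely, at 6.83 ± 0.79 against 4.89 ± 0.86 (SD, n = 3 each; limma adjusted p = 0.0014). The exception was gpr183a, an oxysterol receptor gene known from immune cells, whose transcripts fell 22.6-fold. Its mean was 6.27 against 10.77. All myeloid and all erythroid genes analysed were lower as well, as was 45.5% of the table. A link of gpr183a to either cell type was not tested.

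The endothelial marker list shared 6 genes with the flow list. Among its 36 genes 25 were analysed. The higher side held 24 of them, where 54.5% of the table was higher. The list's median was 1.79, against 1.08 over all genes and 1.48 over all higher genes. Only lyve1b, flt4 and aplnra on the list exceeded klf2a, at 2.80, 2.68 and 2.61. These are receptor genes of veins and lymphatics or angioblasts. The scavenger receptor gene stab2 followed at 2.46. The lower gene was tal1, a factor gene of blood and endothelium that is also on the erythroid list, at -1.32. The summed reads of these markers made up between 9.70% and 10.4% of the table in NFKB+ and between 1.84% and 2.85% in NFKB- libraries.

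Of the 50 erythroid genes listed, 35 were analysed and all 35 were lower in NFKB+ cells, where 45.5% of the table was lower. The list's median was -2.67, against 1.08 over all genes and -1.52 over all lower genes. Among the 33 besides klf1 and klf17, only hbae1, nt5c2l1 and hbbe3 had larger differences than klf1, at -2.98, -2.97 and -2.92. By role, the factor genes gata1a, nfe2 and gfi1b lay at -2.73, -2.77 and -2.57, between or near klf1 and klf17. The red cell membrane and membrane skeleton genes slc4a1a, ank1a and epb41b, of a kind that KLF1 activates in mammals, lay at -2.80, -2.87 and -2.71. Of the same kind, sptb lay at -2.73 and rhag at -2.24. The genes at the near end, gfi1aa and tal1, are factor genes too, and they lay far from klf1 and klf17, at -1.01 and -1.32. The 20 myeloid genes, which have no KLF gene among them, were lower without exception too, with a similar median of -2.63 but a wider range, from -4.67 to -1.28. Their largest differences were those of the lysozyme gene lyz, the collagenase gene mmp13a, the neutrophil peroxidase gene mpx and the Fc receptor chain gene fcer1gl, at -4.67, -4.41, -3.97 and -3.71. The erythroid genes named by role were chosen after their values were seen.

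**Figure D4:**
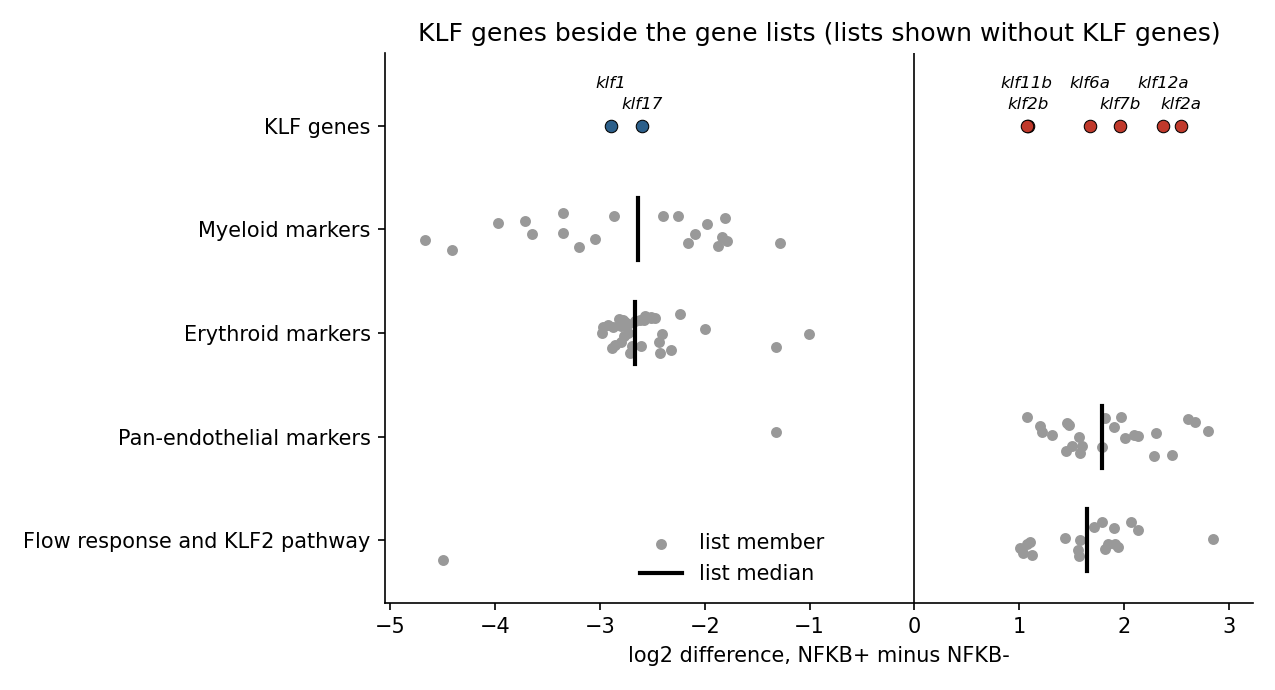
Log2 difference between the sorts (NFKB+ minus NFKB-) on the x axis for the KLF genes (top line, red higher and blue lower) and for the members of 4 gene lists without their KLF genes (grey points, black bar at the median). The erythroid points crowd around -2.67, with klf17 at -2.59 near it and klf1 at -2.89 toward the far end of the list. The point of klf2a at 2.55 lies to the right of the endothelial median of 1.79.

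The SP genes, the closest relatives of the KLFs, were represented by 2 of 13 symbols, and they were split. The gene sp1, a factor of GC boxes in many promoters, had a level of 11.10 ± 0.18 in NFKB+ and 12.18 ± 0.14 in NFKB- libraries (SD, n = 3 each), a 2.12-fold fall. The gene sp5a, a target of Wnt signalling, was 2.43-fold higher, at 8.09 ± 0.34 against 6.81 ± 0.53 (SD, n = 3 each), on between 71 and 491 reads.

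The scaling of the libraries limits the size of all single-gene differences, since it shifts the whole table. Scaling by median ratios over the table moved the median difference by -0.88, taking klf2a from 2.55 to 1.67, klf7b from 1.96 to 1.08, klf6a from 1.68 to 0.80 and klf12a from 2.37 to 1.49, and ended the calls of klf2b (0.21, limma adjusted p = 0.199, over a range from 1.08e-07) and klf11b (0.19, limma adjusted p = 0.289, over a range from 3.02e-07). It also ended the calls of sp5a and of 6 other genes of the flow list, namely pkd2, mef2d, wnt9b, notch1a, pecam1 and ptgs2a, and turned no direction among the listed genes. Median ratios treat the middle of the table as equal between the sorts, but every row had passed the authors' 2-fold limit. The median difference was 1.08 under the deposited scaling, so a downward shift of the higher genes was built into this alternative. The lost calls therefore cannot decide whether klf2b, klf11b or the other genes named here differ.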

How the data were processed

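Per the labels, libraries came from total RNA of the sorted cells by a low-input method; strand is not stated. Per the submitters' processing notes, the tools were cutadapt, STAR, HTSeq and DESeq2 and the build danRer10, without versions or roles; which gene annotation was used is not given in these sources. The file that the authors deposited has 2475 rows and gives, for each gene, log2 values by library, an average log2 expression, a log2 fold change, a signed fold score, and p-values with adjusted p-values. Per the file headers, columns carry the sort and a running number, so libraries are named by that number. In each library, 2 to the power of a log2 value, minus 1, gave whole multiples of 1 step for 100% of values under 1000 reads (tolerance 0.1 read), so the deposited values are log2 of reads over a size factor, plus 1. Size factors ranged from 0.834 to 1.56. The 4 rows of duplicated names (mafba, efna2a) were left out.

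The sorts were compared over all 2471 genes with limma 3.58.1 in R 4.3.3 (eBayes with a mean trend, no covariate, pseudocount 1, no low-value filter), with Benjamini-Hochberg adjustment at 0.05. A fold is 2 to the power of the difference on the log2(value + 1) scale. The authors' log2 fold change, in the authors' deposited table, was 2.51 for klf2a and -2.87 for klf1. Ratios within libraries were tested with exact two-sided permutation tests (scipy 1.17.1), and those beyond klf2a to klf1, klf2a to kdrl and klf1 to alas2 were added after seeing the data. KLF reads ranged from 411 to 60732 per library, a counting error from 4.93% down to 0.406%. Well-measured genes had a mean of at least 50 normalized reads. Named genes were the KLF and SP genes, the 5 nearest patterns of klf1 and klf2a, and from each list up to 4 well-measured, non-overlapping genes of largest difference. Genes named beyond this rule are marked in the text, serve as references (kdrl, cdh5, alas2, gata1a) or were named for their result. The last are pecam1 and tal1, as exceptions on a list, and the genes whose calls ended under median ratios. The genes and lists were chosen with earlier results of these data known. No coordinates are given, since the reference table is of another build.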

Additional observations from a re-analysis of the deposited data

How the results depend on the processing

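The 8 KLF differences kept their direction under all 13 alternatives run, and 102 of 104 values kept their call. The exceptions were klf2b and klf11b under median ratios, a scaling that assumes a table centred on unchanged genes. Every row had passed the authors' 2-fold limit, so that assumption could not hold and the 2 lost calls decide nothing. The authors' selection also largely fixed the directions of the 8 KLF differences, so these directions say nothing of stability. The shift of the median log2 difference was 0.49 at the same total, -0.11 at the same total without globins and -0.88 with median ratios, and klf2a then lay at 3.04, 2.43 and 1.67, and klf1 at -2.40, -3.00 and -3.77. With 1 library left out, klf2a ranged from 2.41 to 2.71, klf1 from -3.01 to -2.77, the klf2a to klf1 shift from 5.26 to 5.73, the klf2a to kdrl shift from 1.28 to 1.40 and the klf1 to alas2 shift from -0.26 to -0.18. The within-library shifts near 0 varied in sign with 1 library left out (klf2b and klf11b to kdrl, klf17 to alas2, klf2b to klf11b). Counts of genes past the threshold ranged from 920 to 1347 higher and from 1059 to 1124 lower. The 1059 came from the run limited to 2356 well-measured genes, and with all 2471 genes tested the lowest count was 1100, at the same total. No paired analysis was possible because no column names the replicate numbers that the labels use. Counting error was at most 4.93% for the 8 KLF genes analysed, if each read is taken as independent. The gene wnt9b, with as few as 18 reads in a library, is imprecise.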
